A study of Mus musculus with 16 samples.

Results

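The change between 24h and 72h in the difference between Kaede-red and Kaede-green CD11b+ tumour cells was examined in all 16 of the 16 bulk RNA-seq libraries of the series. For each gene the Kaede-red minus Kaede-green difference at 24h was subtracted from the same difference at 72h on the log2 scale, which is the interaction of Kaede fluorescence and time. The cells came from female Kaede transgenic C57BL/6 mice of 8 to 14 weeks that carried subcutaneous MC38-Ova tumours, a murine colon adenocarcinoma line that expresses ovalbumin, and that received no treatment in any of the 4 groups. Tumours were photoconverted on day 13 and collected on day 14 (24h) or day 16 (72h), and viable CD45+ CD11b+ Kaede+ cells without TER119 or NK1.1 were sorted into Kaede-green and Kaede-red cells. Each of the groups Kaede-green 24h, Kaede-red 24h, Kaede-green 72h and Kaede-red 72h holds 4 libraries. CD11b is carried by other myeloid cells too, such as neutrophils, so the gate is not specific to monocytes and macrophages, and all groups share the transgene, the tumour line and the sex.

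Kaede is a green fluorescent protein that violet light converts to a red form for good. Cells in the tumour at the time of illumination turn red, and cells that arrive later are green, so Kaede-green cells are recent arrivals and Kaede-red cells have been in the tumour for at least the time since illumination. Converted cells go on making green protein, and thus a red cell carries both colours. Blood monocytes enter tumours with the help of adhesion molecules such as integrins, and there they can lose monocyte markers such as Ly6C and become macrophages that take up lipid, debris and antigen. The shortest possible stay of a Kaede-red cell is therefore longer at 72h than at 24h, while a Kaede-green cell at 72h can have arrived at any point in the longer interval. Tumours of the 72h groups were also collected on day 16 and not on day 14. Time since illumination and age of the tumour thus cannot be told apart.

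Counts outside the ribosomal RNA gene Rn45s, the precursor of most ribosomal RNA, set the depth. Their group medians were 563621 (Kaede-green 24h), 1223429 (Kaede-red 24h), 748944.5 (Kaede-green 72h) and 4382317 (Kaede-red 72h), so that the mean red-green difference in depth was 1.00 on the log2 scale at 24h and 2.15 at 72h. Rn45s took 55.8 to 93.4% of the counts of a library. The 11 markers of monocytes and macrophages, among them Itgam, Csf1r and Lyz2, were all detected in every group and summed to 911 to 2710 CPM (counts scaled to the size of the library) per library. Markers of tumour epithelial cells summed to at most 3.68 CPM, of B cells to at most 2.45 CPM and of T or NK cells to at most 13.9 CPM. Those of endothelial cells summed to 12.3 to 22.1 CPM in Kaede-green and 20.5 to 25.9 CPM in Kaede-red libraries at 24h. At 72h these sums were 10.4 to 21.9 CPM and 28 to 43 CPM. The 12 fibroblast markers summed to 95.9 to 149 CPM in Kaede-green and 46.8 to 117 CPM in Kaede-red libraries at 24h, and to 125 to 145 CPM and 41.7 to 47.8 CPM at 72h. Most of the fibroblast sums came from collagen genes such as Col6a3 and Col5a1, while Dcn and Lum had means of at most 0.808 CPM in every group. In bulk samples, fewer cells of a type and less RNA per cell cannot be told apart.

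The red-green difference changed between the times for 73 of the 9642 genes tested (0.757%; edgeR's quasi-likelihood test, Benjamini-Hochberg adjusted p under 0.05). For 41 genes the value was positive, a shift towards Kaede-red cells at 72h (0.425%), and for 32 genes it was negative (0.332%). Monocyte genes (Ace, Vcan, Itgal), interferon-inducible genes (Ifit1, Ly6e, Ifi203) and Cybb were among the former. Rgs1, Ms4a7, Fabp5 and Cd63, histone genes and small nuclear and nucleolar RNAs were among the latter. Gvin1 and Gm4070, named after their values were seen, are both counted among the 41. They had identical values in every library, so that both names hold the same reads. Without adjustment 1476 genes had a p under 0.05, and the median standard error of the log2 interaction was 0.53 over all genes.

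More of these genes passed for the change with time in Kaede-red than in Kaede-green cells, and the sizes of the changes in the 2 colours were not tested against each other. The interaction equals the Kaede-red change from 24h to 72h minus the Kaede-green change, so these components belong to the same contrast and describe it. Of the 73 genes, 63 also passed for the change in Kaede-red cells, where 837 of all genes tested passed (8.68%). None passed in Kaede-green cells, where 0 genes were called over the whole table (0%), against 835 with an unadjusted p under 0.05 and 12 with DESeq2. The median standard error was 0.32 for the Kaede-red and 0.42 for the Kaede-green change, so that the Kaede-red change was measured more closely. In 57 of the 73 genes the Kaede-red change was the larger, and in 69 both colours had opposite signs. The 73 genes were selected on the difference of these 2 changes, which favours opposite signs. Both counts therefore describe the selected genes only. The 41 genes with a positive interaction had a median change of 1.14 in Kaede-red and of -0.43 in Kaede-green cells, and the 32 with a negative one had -1.08 and 0.72. Of these, 16 and 21 genes had an unadjusted p under 0.05 in Kaede-green cells, and 10 of the 73 passed in neither colour. With scaling by library size alone, 9 genes of the whole table passed with time in Kaede-red and 36 in Kaede-green cells.

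**Figure D1:**
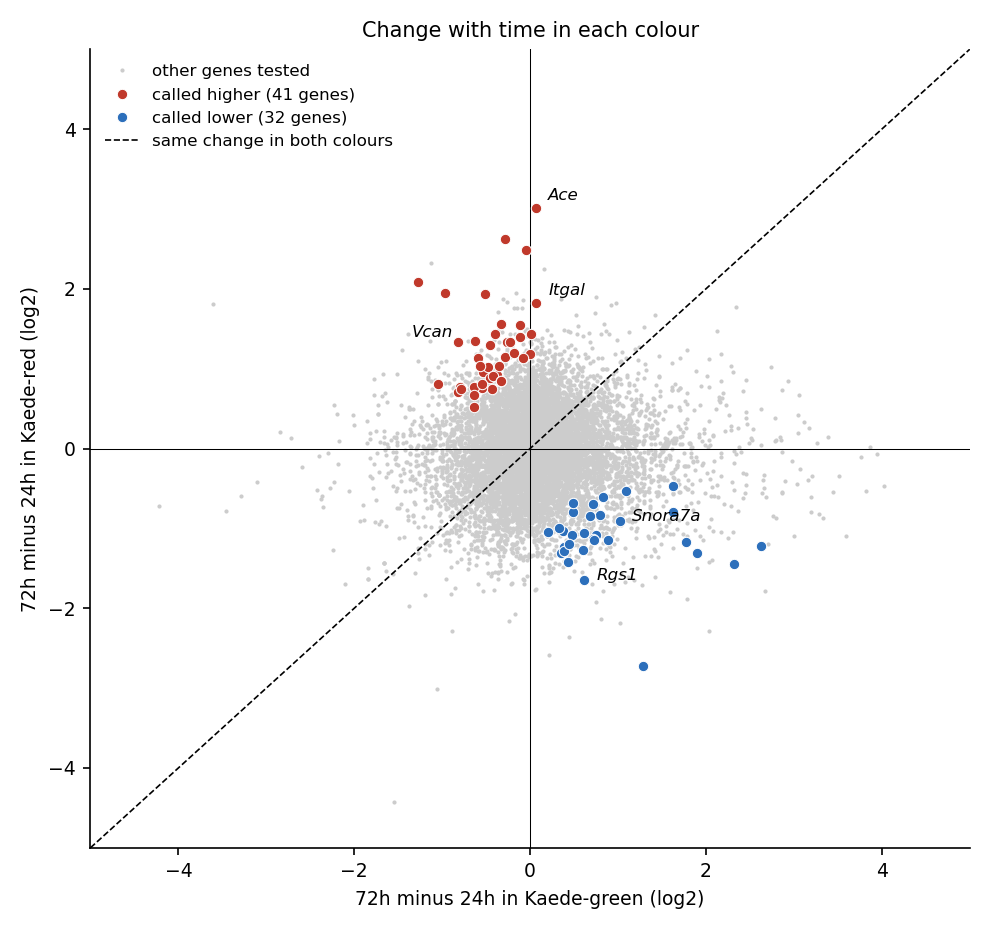
Log2 change from 24h to 72h in Kaede-green cells (x axis) and in Kaede-red cells (y axis), 1 point per gene tested, with the genes called in the interaction in red (41, positive) and blue (32, negative) and equal changes on the dashed line. The called genes lie further from 0 along the Kaede-red axis in 57 of 73 cases. Hprt and other genes beyond the axis limits, 24 in all, are not drawn.

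Most shifts passed the test at one of the times and not at the other. At 24h 723 genes differed between the colours (7.5%) and at 72h 1622 genes did (16.8%). Among the 41 genes with a positive interaction, 20 were lower in Kaede-red cells at 24h and did not pass at 72h, and 14 did not pass at 24h and were higher in Kaede-red cells at 72h. For 4 of the 41 (Itgal, Ly6c1, S100a11 and Ifi203) the difference passed at both times and turned from lower to higher in Kaede-red cells. Among the 32 genes with a negative interaction, 20 did not pass at 24h and were lower in Kaede-red cells at 72h, and 10 were higher in Kaede-red cells at 24h and did not pass at 72h. The median red-green difference moved from -0.85 to 0.70 in the first set and from 0.62 to -1.05 in the second.

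**Figure D2:**
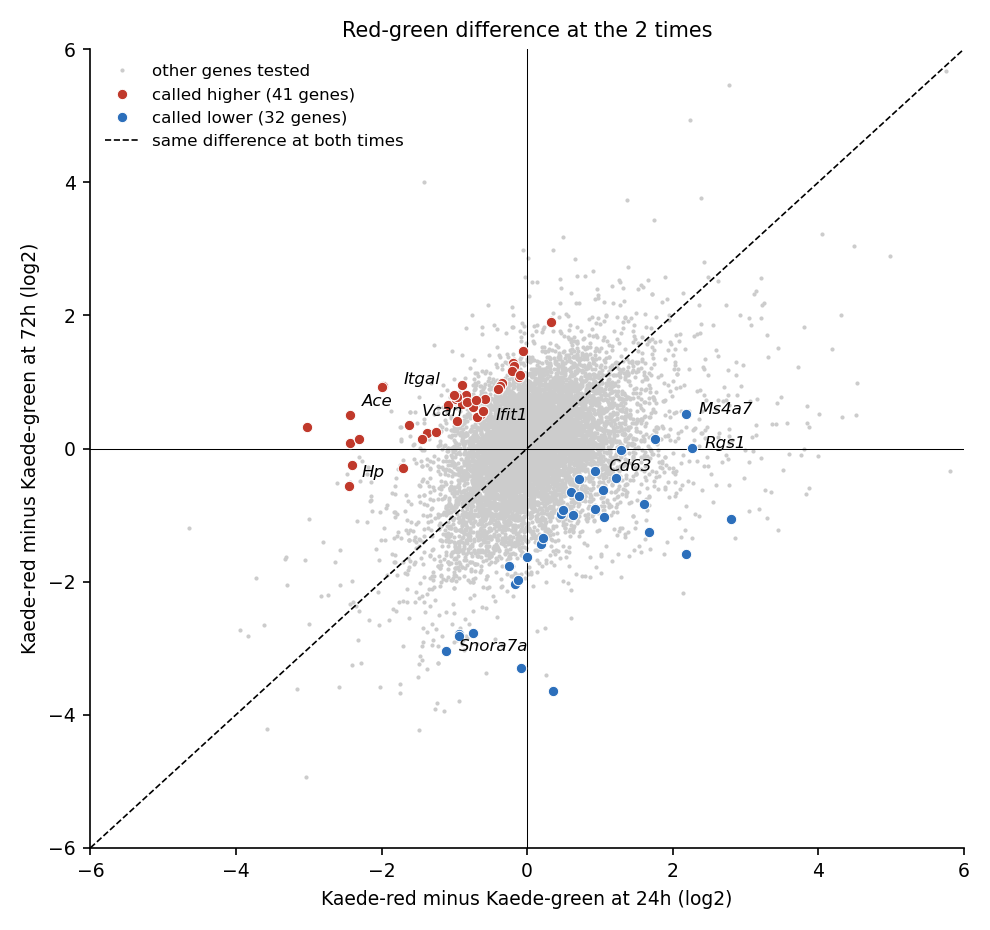
Kaede-red minus Kaede-green difference at 24h (x axis) and at 72h (y axis) on the log2 scale, 1 point per gene tested, with the called genes coloured as in the plot of changes by colour and equal differences on the dashed line. The monocyte genes Hp, Ace and Vcan lie left of 0, between -2.45 and -1.62, and at -0.56 to 0.51 on the y axis, Rgs1 and Ms4a7 lie right of 0, and Snora7a lies low on both axes; 26 genes, Hprt among them, lie beyond the axis limits.

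Of the 20 tested genes on a list of monocyte genes, 5 were called with a positive interaction (Ace, Vcan, Hp and Itgal among them) and none with a negative one. The shares of all genes tested were 0.425% and 0.332%. The interaction was positive for 19 of the 20 (95%), against 46.4% of all genes tested, and its median was 1.03 against -0.068. At 24h 14 of the 20 were lower in Kaede-red cells (4.28% of all genes were) and none higher, while at 72h 5 were lower (8.76%) and 1 was higher (8.06%). From 24h to 72h 9 of the 20 rose in Kaede-red cells (4.92%) and the median change was 0.76, against -0.33 in Kaede-green cells. Some monocyte genes did not follow. S100a4, Plac8, S100a6 and Ms4a4c had interactions of 0.082, 0.026, 0.014 and -0.15 and were lower in Kaede-red cells at both times.

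Vcan, on chromosome 13 from 89655312 to 89742509 (mm10), encodes versican, a matrix proteoglycan made by classical monocytes, and its span overlaps the predicted genes Gm16318 and Gm4117 on the other strand. It was at 65.8, 34.0, 57.1 and 45.4 CPM in Kaede-green and 26.4, 17.8, 11.1 and 10.3 CPM in Kaede-red libraries at 24h, and at 34.7, 39.7, 35.5 and 21.1 CPM and 38.6, 46.9, 45.2 and 37.5 CPM at 72h. The 2 colours were apart at 24h, with Kaede-red lower, and overlapped at 72h. The interaction was 1.98 (standard error 0.36, adjusted p = 0.0131), with 1.35 from the Kaede-red and -0.63 from the Kaede-green change (adjusted p = 0.00132 and 0.470).

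Ace encodes angiotensin-converting enzyme, which monocytes of the patrolling type express strongly, and lies on chromosome 11 from 105967945 to 105989964, where the predicted gene Gm11651 overlaps it on the other strand. It was a low gene, at 6.13, 6.15, 6.12 and 9.41 CPM in Kaede-green and 2.37, 1.22, 1.09 and 0.452 CPM in Kaede-red libraries at 24h. At 72h it was at 11.3, 5.19, 4.86 and 8.06 CPM and at 12.1, 9.30, 11.3 and 8.66 CPM. Kaede-red libraries were thus the lowest group at 24h and overlapped with Kaede-green at 72h. Its interaction of 2.95 (standard error 0.50, adjusted p = 0.0078) came from the Kaede-red change of 3.01 (adjusted p = 6.33e-06), since the Kaede-green change was 0.063. The counts behind it were 6 to 27 per Kaede-red library at 24h and 11 to 24 per Kaede-green library.

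Itgal, the α chain of the integrin LFA-1, was at 11.7, 14.7, 14.5 and 6.13 CPM in Kaede-green and 7.47, 6.93, 6.17 and 4.07 CPM in Kaede-red libraries at 24h, and at 15.4, 8.24, 10.2 and 16.4 CPM and 23.6, 22, 21.9 and 18.8 CPM at 72h. It was 1 of the 4 genes that turned, with a red-green difference of -0.96 at 24h (adjusted p = 0.0268) and of 0.78 at 72h (adjusted p = 0.0270), and an interaction of 1.75 (adjusted p = 0.0277). At 72h all Kaede-red libraries lay above all Kaede-green ones. Itgb7, an integrin β chain that pairs with the α4 chain encoded by Itga4, had an interaction of 1.66 (adjusted p = 0.0489). Adgre5, the adhesion receptor CD97, had 1.82 (adjusted p = 0.0465).

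Itga4 and Selplg were named after their values were seen. Itga4 had an interaction of 1.38 (adjusted p = 0.0222), with Kaede-red libraries at 10.4 to 17.5 CPM at 24h and at 32.4 to 37.3 CPM at 72h, against 22.9 to 34.4 CPM in all Kaede-green libraries. At 24h its Kaede-red libraries lay below all Kaede-green ones, and at 72h they lay above all Kaede-green libraries of that time. Selplg, the adhesion ligand PSGL-1 of leukocytes, was at 11.5 to 16.2 CPM in Kaede-green and 8.71 to 16.5 CPM in Kaede-red libraries at 24h, and at 9.77 to 16.4 and 28.7 to 38.0 CPM at 72h. It did not differ past the test at 24h (-0.057, adjusted p = 0.929) and passed at 72h with Kaede-red higher (1.46, adjusted p = 2.31e-05), with an interaction of 1.51 (adjusted p = 0.0277).

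**Figure D3:**
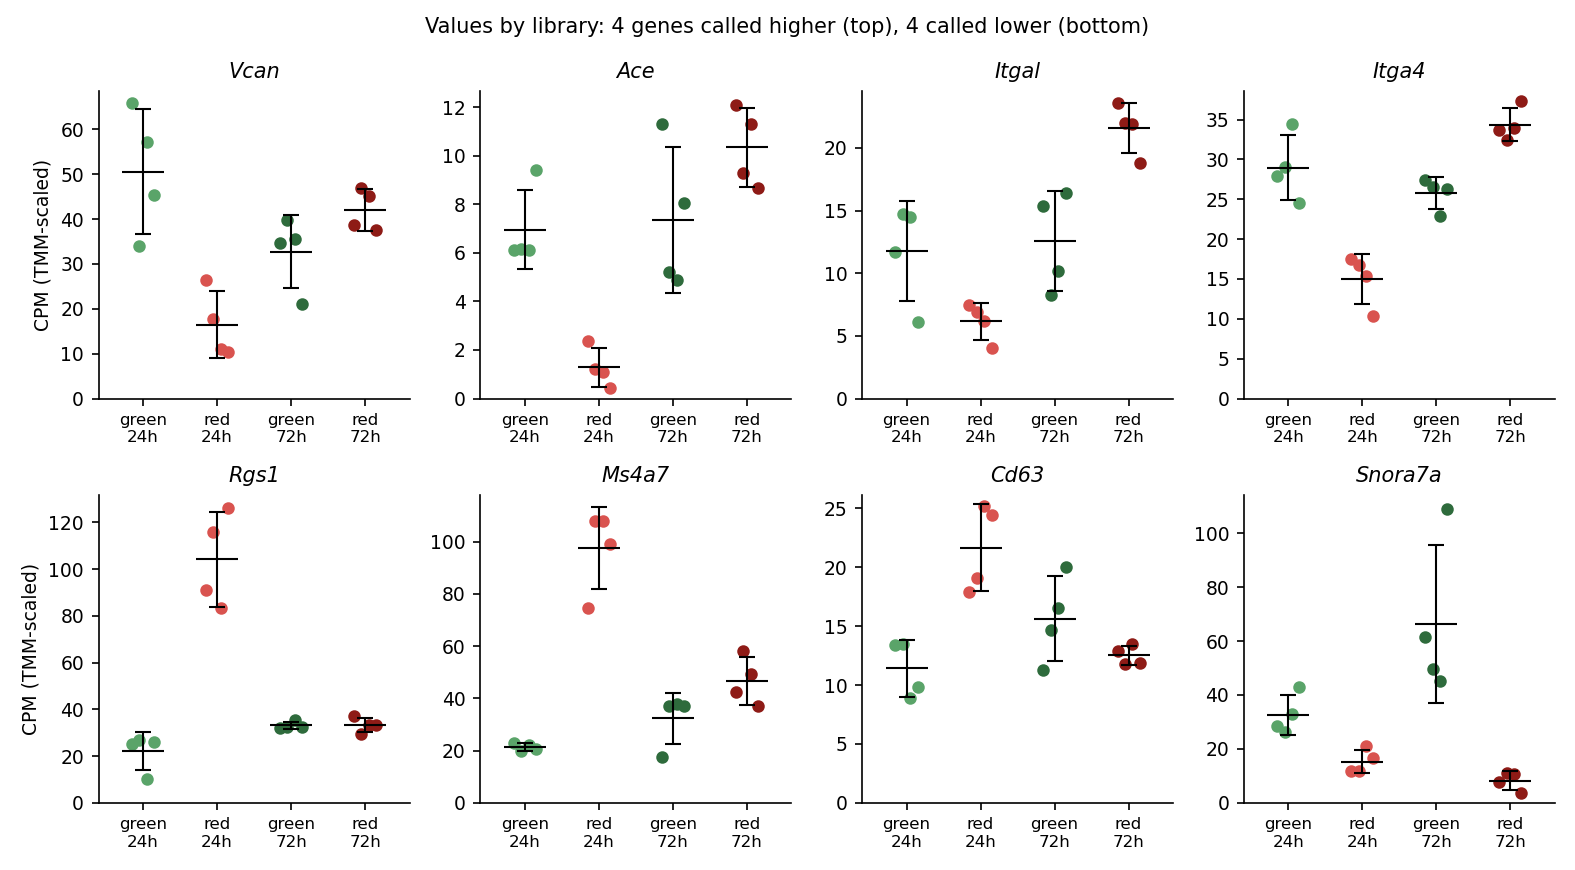
CPM per library (y axis, from 0, TMM-scaled) of 4 genes with a positive interaction (Vcan, Ace, Itgal, Itga4) and 4 with a negative one (Rgs1, Ms4a7, Cd63, Snora7a) in the 4 groups; points are libraries, and bars give the mean and SD of 4 libraries. The Kaede-red 24h libraries lie below all others for Ace and Itga4 and above all others for Rgs1 and Ms4a7, and overlap with another group for Vcan, Itgal and Cd63, while for Snora7a the Kaede-green libraries at 72h are the highest.

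Hp, Ly6c1 and Ifitm6 are further genes of monocytes or myeloid cells. Hp, which encodes haptoglobin, was at 14.3 to 28.3 CPM in Kaede-green and 2.26 to 5.8 CPM in Kaede-red libraries at 24h, and at 12.6 to 23.8 and 8.19 to 15.9 CPM at 72h, with an interaction of 1.89 (adjusted p = 0.0243). Ly6c1 had an interaction of 1.72 (adjusted p = 0.0222) and turned, from -0.98 at 24h (adjusted p = 0.0106) to 0.75 at 72h (adjusted p = 0.0302). Its close paralog Ly6c2, the gene of the monocyte marker Ly6C2, had an interaction of 1.14 that did not pass (adjusted p = 0.110, and 0.0176 without the filter on low counts), and the counting may have divided shared reads between these genes. Ifitm6 had 2.15 (adjusted p = 0.0321), with Kaede-red libraries at 4.35 to 7.82 CPM at 24h and 5.91 to 25.6 CPM at 72h.

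S100a11, a calcium-binding protein, had the larger change in Kaede-green cells, with -1.05 in Kaede-green (unadjusted p = 0.00128, adjusted p = 0.354) and 0.81 in Kaede-red cells (adjusted p = 0.0580) and an interaction of 1.86 (adjusted p = 0.0277). Add3, an adducin of the membrane skeleton, had 1.60 (adjusted p = 0.0495). Cd177, a glycoprotein best known from neutrophils and named here after its values were seen, had 2.92 (adjusted p = 0.0277) at 0.323 to 2.11 CPM in Kaede-red libraries at 24h and 6.32 to 8.34 CPM at 72h. The 11 neutrophil markers summed to medians of 28.2 and 22.7 CPM in Kaede-green and Kaede-red libraries for 24h and of 26.9 and 31.1 CPM at 72h, with 4 of them at 0 in all Kaede-green libraries of each time and 2 in all Kaede-red libraries. Most of these sums came from Csf3r and Il1r2, while S100a8 and S100a9 had means of at most 1.15 CPM in every group. In Kaede-red libraries the mean of Csf3r went from 8.11 to 16.4 CPM and that of Il1r2 from 10.3 to 9.96 CPM. The part of neutrophils in the value of Cd177 was not tested.

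Interferon-inducible genes leaned the same way, though few passed. Of 37 type I interferon antiviral genes 1 was called (Ifit1), 33 had a positive interaction (89.2%) and the median was 0.41. Over all 9642 genes tested, the interaction was positive at an unadjusted p under 0.05 for 706, and DESeq2 called 159 as positive. Of 39 interferon γ target genes none was called by edgeR, and the median was 0.54 with 34 positive (87.2%). Of these 39, 14 had an unadjusted p under 0.05 and a positive value, and DESeq2 called 2. Among these, Wars, Gbp2 and Icam1 had values of 2.06, 1.23 and 1.24 (adjusted p = 0.0626, 0.0631 and 0.0800). In Kaede-red cells 9 of the antiviral genes and 7 of the interferon γ targets rose with time (4.92% of all genes did), and 1 antiviral gene fell. Scaling by library size alone brought the antiviral median to 0 and the interferon γ median to 0.14, where the median of all genes was -0.34.

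Ifit1, an RNA-binding antiviral protein, was at 51.3, 55.3, 45.6 and 80.2 CPM in Kaede-green and 58.2, 41.7, 23 and 31.1 CPM in Kaede-red libraries at 24h. At 72h it was at 48.6, 48.9, 29.7 and 46.8 CPM and at 73.0, 75.7, 72.4 and 69.0 CPM. The colours overlapped at 24h, and at 72h every Kaede-red library was above every Kaede-green one. Its interaction was 1.33 (standard error 0.33, adjusted p = 0.0482), with 0.91 from Kaede-red cells (adjusted p = 0.0115). Ly6e, an interferon-inducible membrane protein, and Ifi203, a nuclear DNA-binding protein of the interferon-inducible p200 family, were named after their values were seen and had interactions of 1.33 (adjusted p = 0.0318) and 1.16 (adjusted p = 0.0373). Gm8979, annotated as an unprocessed pseudogene among interferon-inducible GTPase genes on chromosome 7, had 2.44 (adjusted p = 0.0477) and may share reads with its near copies.

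Cybb encodes the catalytic subunit of the phagocyte NADPH oxidase, which makes superoxide. It was at 55.8, 66.0, 66.8 and 62.2 CPM in Kaede-green and 69.8, 72.9, 47.4 and 44.5 CPM in Kaede-red libraries at 24h, and at 67.3, 51.0, 51.1 and 68.4 CPM and 138, 130, 110 and 136 CPM at 72h. Kaede-red libraries at 72h lay above all others, which overlapped. It rose by 1.13 in Kaede-red cells (adjusted p = 0.000978), against -0.080 in Kaede-green cells, and had an interaction of 1.21 (adjusted p = 0.0373). It was the single called gene of 26 oxidase and antioxidant genes, whose median was 0.15.

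The promoters of Ifit1, Cybb and Tnfrsf1b are shown because these genes gained a difference towards Kaede-red cells at 72h and their windows hold interferon motifs. Each is the RefSeq window from 250 bases before to 50 after a gene start (GRCm38.p6, 5′ to 3′ on the strand of the gene), with capitals for matches to the interferon γ activated site TTCNNNGAA or to the core of the interferon-stimulated response element GAAANNGAA on either strand. Ifit1 lies on the plus strand at chr19:34640639-34640938, Cybb on the minus strand at chrX:9469275-9469574, and Tnfrsf1b on the minus strand at chr4:145246821-145247120.
Ifit1: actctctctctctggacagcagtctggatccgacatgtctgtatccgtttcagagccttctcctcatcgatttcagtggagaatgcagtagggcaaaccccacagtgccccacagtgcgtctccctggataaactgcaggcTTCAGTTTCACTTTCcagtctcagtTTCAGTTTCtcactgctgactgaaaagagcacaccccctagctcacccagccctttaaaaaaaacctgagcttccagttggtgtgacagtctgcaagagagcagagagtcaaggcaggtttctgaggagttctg
Cybb: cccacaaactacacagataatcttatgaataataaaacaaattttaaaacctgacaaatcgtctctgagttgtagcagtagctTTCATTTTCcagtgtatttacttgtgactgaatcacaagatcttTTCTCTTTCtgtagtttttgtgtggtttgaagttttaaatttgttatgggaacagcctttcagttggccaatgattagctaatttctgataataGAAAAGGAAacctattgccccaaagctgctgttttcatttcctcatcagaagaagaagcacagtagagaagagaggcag
Tnfrsf1b: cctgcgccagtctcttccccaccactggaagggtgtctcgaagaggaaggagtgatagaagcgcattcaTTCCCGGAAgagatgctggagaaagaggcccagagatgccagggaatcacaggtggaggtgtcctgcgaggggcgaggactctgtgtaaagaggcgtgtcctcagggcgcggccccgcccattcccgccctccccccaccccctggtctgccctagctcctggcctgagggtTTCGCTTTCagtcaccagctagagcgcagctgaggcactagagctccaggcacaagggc
Ifit1 and Cybb held 3 matches each to the response element core, which overlap in part in Ifit1, and Tnfrsf1b held 1 match to each motif. Of the 41 genes with a positive interaction, 30 had a promoter window, and 5 of these held the response element core (16.7%) and 5 the γ activated site (16.7%). Over the 7300 tested genes with a window the shares of genes were 9.15% and 8.16%, and over all 27025 genes with windows of this length they were 9.76% and 9.55%. Of the 32 genes with a negative interaction 19 had a window, of which 1 (Ms4a7) held the response element core and 0 the γ activated site. A match is a run of letters and not a binding site.

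Receptors and regulators were found with a positive interaction as well. Tnfrsf1b, the TNF receptor of leukocytes known as TNFR2, was named after its values were seen. It was at 27.8 to 43.4 CPM in Kaede-green and 18.0 to 42.5 CPM in Kaede-red libraries at 24h and at 19.5 to 35.6 and 53.2 to 66.1 CPM at 72h, with an interaction of 1.38 (adjusted p = 0.0465). Notch2, the receptor that helps to form patrolling monocytes, also named afterwards, rose by 1.18 in Kaede-red cells (adjusted p = 0.000458) and was at 0.0036 in Kaede-green cells, with an interaction of 1.18 (adjusted p = 0.0455). Zfp36 encodes tristetraprolin, which speeds the decay of cytokine mRNAs. It was at 108 to 151 CPM in Kaede-green and 66.6 to 90.5 CPM in Kaede-red libraries at 24h, and at 63.8 to 106 and 108 to 132 CPM at 72h. The order of the colours turned without overlap at either time. The red-green difference passed at 24h (-0.69, adjusted p = 0.0216) and not at 72h (0.47, adjusted p = 0.0941). The interaction of Zfp36 was 1.16 (adjusted p = 0.0445). Neither colour passed alone with time, with 0.52 in Kaede-red (adjusted p = 0.0868) and -0.64 in Kaede-green cells (adjusted p = 0.401).

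Other receptor lists had positive medians without a call by edgeR. Over all genes tested, 706 of 9642 had a positive value at an unadjusted p under 0.05, and 4.92% rose in Kaede-red cells. DESeq2 called 159 of the 9642 with a positive value. For 22 Toll-like receptors and adaptors the median was 0.56, with 19 positive, 7 with an unadjusted p under 0.05 and 1 called by DESeq2. Tlr9, the endosomal receptor for CpG DNA, had 1.53 (adjusted p = 0.0626), and it rose by 1.47 in Kaede-red cells (adjusted p = 0.00167). For 26 genes of Fcγ receptors and phagocytosis the median was 0.45, with 23 positive, 8 with an unadjusted p under 0.05 and 1 called by DESeq2, and 9 rose in Kaede-red cells. Syk, the kinase downstream of Fc receptors, had 0.98 (adjusted p = 0.111). Of the 20 resident macrophage genes none was called (3 with an unadjusted p under 0.05, 2 by DESeq2), with a median of 0.23. Scaling by library size alone brought this median to -0.24 and that of all genes to -0.34. Of the 20 genes, 13 were higher in Kaede-red cells at 24h (3.22% of all genes) and 16 at 72h (8.06%).

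Rgs1, Ms4a7, Fabp5 and Cd63 had negative interactions, were higher in Kaede-red cells at 24h and did not pass at 72h. The 11 markers of monocytes and macrophages went the other way, with 11 positive interactions and a median of 0.37. With scaling by library size alone this median was -0.07, where that of all genes was -0.34. Of these markers 5 had an unadjusted p under 0.05, none was called by edgeR and 2 were by DESeq2. Over all 9642 genes tested, 706 were positive at that p and DESeq2 called 159 as positive. Rgs1, a GTPase-activating protein that damps chemokine receptor signals, had the smallest adjusted p of all genes. It lies on chromosome 1 from 144242296 to 144249242 and was at 25.1, 27.0, 10.2 and 26.2 CPM in Kaede-green and 91.1, 116, 83.3 and 126 CPM in Kaede-red libraries at 24h, and at 32.2, 32.4, 35.3 and 32.5 CPM and 37.0, 29.6, 33.3 and 33.4 CPM at 72h. Kaede-red cells at 24h were thus above every other library, and the colours overlapped at 72h. It fell by 1.64 in Kaede-red cells (adjusted p = 4.88e-05), was at 0.61 in Kaede-green cells (adjusted p = 0.458) and had an interaction of -2.25 (standard error 0.32, adjusted p = 0.000478).

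Ms4a7, a membrane protein of macrophages on chromosome 19 from 11321039 to 11336146, was at 22.9, 19.7, 22.2 and 20.4 CPM in Kaede-green and 74.7, 108, 108 and 98.9 CPM in Kaede-red libraries at 24h. At 72h it was at 17.5, 36.9, 37.9 and 36.9 CPM and at 42.3, 58.1, 49.2 and 36.9 CPM. The Kaede-red group was again set apart at 24h and overlapped at 72h. Its interaction was -1.68 (standard error 0.31, adjusted p = 0.0141), and the Kaede-red change was -1.06 (adjusted p = 0.00213).

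Fabp5 and Cd63 were the called members of 22 genes of lipid-associated macrophages, whose median interaction was -0.41 with 6 positive. Of all genes tested, 0.332% were called with a negative value. Fabp5, a carrier of fatty acids, was at 27.0 to 46.3 CPM in Kaede-green and 76.6 to 119 CPM in Kaede-red libraries at 24h, and at 36.2 to 62.3 and 43.0 to 48.8 CPM at 72h, with an interaction of -1.32 (adjusted p = 0.0356). Cd63, a tetraspanin of late endosomes, had -1.28 (adjusted p = 0.0482), with Kaede-red libraries at 17.9 to 25.2 CPM at 24h and 11.8 to 13.5 CPM at 72h. Of the 22 genes, 14 were higher in Kaede-red cells at 24h (3.22% of all genes) and 9 at 72h (8.06%), and 6 fell in Kaede-red cells with time (3.76%). Ctsl and Spp1 had -1.05 and -1.02 (adjusted p = 0.0685 and 0.0800), while Abcg1 and Abca1, which export cholesterol, had 0.72 and 0.58 (adjusted p = 0.283 and 0.437).

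Bcl2a1a and Bcl2a1d, near-identical genes of an anti-apoptotic BCL2 relative and NF-κB targets, had interactions of -1.68 and -1.66 (adjusted p = 0.0277 and 0.0379). Reads that fit both may be divided between them, so they count as 1 observation. Bcl2a1a was at 30.7 to 35.7 CPM in Kaede-green and 41.7 to 101 CPM in Kaede-red libraries at 24h and at 29.6 to 57.2 and 18.8 to 38.3 CPM at 72h. Of the 39 NF-κB target genes edgeR called Bcl2a1d alone, while DESeq2 called 2 with a positive and 2 with a negative value. Over all 9642 genes tested, DESeq2 called 159 with a positive and 131 with a negative value. The median of the NF-κB list was 0.17, and -0.20 with scaling by library size alone, where that of all genes was -0.34.

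Small nuclear and nucleolar RNAs had negative interactions and differed from Rgs1 and Ms4a7 in their pattern, since the difference was wide at 72h. Snora7a and Snora26 are box H/ACA small nucleolar RNAs, which guide the conversion of uridine to pseudouridine in other RNAs. Both are printed here as the called members of their list, with the ACA box, 3 bases from the 3′ end, in capitals (GENCODE transcripts on GRCm38). Snora7a, of 140 bases, lies on the minus strand at chr6:115807975-115808114 inside Rpl32, and Snora26, of 121 bases, on the plus strand at chr5:74093530-74093650 inside Dancr.
Snora7a: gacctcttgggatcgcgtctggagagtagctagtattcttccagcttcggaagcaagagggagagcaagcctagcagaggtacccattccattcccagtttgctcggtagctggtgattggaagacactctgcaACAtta
Snora26: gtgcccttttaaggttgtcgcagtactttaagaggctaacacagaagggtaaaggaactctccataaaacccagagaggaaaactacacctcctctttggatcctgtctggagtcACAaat
Snora7a was at 28.4, 26.2, 32.9 and 42.9 CPM in Kaede-green and 11.9, 11.7, 20.9 and 16.5 CPM in Kaede-red libraries at 24h, and at 61.4, 49.8, 45.0 and 109 CPM and 7.67, 11.0, 10.6 and 3.64 CPM at 72h. Kaede-green was above Kaede-red at both times without overlap. The red-green difference went from -1.11 (adjusted p = 0.0157) to -3.04 (adjusted p = 5.91e-08). Its interaction was -1.93 (standard error 0.41, adjusted p = 0.0277), with -0.91 from Kaede-red cells (adjusted p = 0.0446) and 1.02 from Kaede-green cells (unadjusted p = 0.00135, adjusted p = 0.354).

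Snora26 had an interaction of -1.88 (adjusted p = 0.0495), and its host Dancr, named after its values were seen, had -1.85 (adjusted p = 0.0482) at nearly the same counts, so that the 2 names hold the same reads. Rnu11, the small nuclear RNA of the minor spliceosome on chromosome 4 from 132270080 to 132270213, was at 27.8 to 62.3 and 20.4 to 41.4 CPM in Kaede-green and Kaede-red libraries for 24h and at 46.9 to 172 and 6.13 to 18.8 CPM at 72h, with -2.03 (adjusted p = 0.0373). Over the 67 tested snoRNA genes the median interaction was -1.31, 64 were negative and 2 were called (0.332% of all genes were called with a negative value). Of the 67, 30 were negative at an unadjusted p under 0.05, against 770 of all 9642 genes tested. At 24h 18 were lower in Kaede-red cells (4.28% of all genes) and at 72h 60 were (8.76%). Their median change was -0.80 in Kaede-red and 0.68 in Kaede-green cells. Without Kaede-green 72h replicate 4, the library with the highest Snora7a and Rnu11, the list median was -0.67. The Rn45s share and the depth outside Rn45s also differed between the groups. Rn45s was at 86.5 to 93.4% and 66.2 to 84.9% in Kaede-green and Kaede-red libraries for 24h. At 72h it was at 79.0 to 91.0% and 55.8 to 73.8%. The range of the share was thus lower at 72h in both colours, while the median change of the snoRNA genes had opposite signs. With the Rn45s share as a covariate Snora7a had -1.94 (adjusted p = 0.0104), and with all libraries thinned to equal depth -1.84 (adjusted p = 0.0411).

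Histone genes had a median interaction of -0.66 over 71 tested, and 3 were called (0.332% of all genes were called with a negative value). These were Hist2h2bb, Hist1h1b and Hist1h2ai with -1.57, -1.41 and -1.26 (adjusted p = 0.0277, 0.0489 and 0.0496). Hist2h2bb, a core histone, was at 32.3, 16.8, 16.6 and 20.9 CPM in Kaede-green and 17.8, 19.6, 32.8 and 29.0 CPM in Kaede-red libraries at 24h, and at 25.6, 25.0, 31.6 and 36.2 CPM and 9.08, 13.5, 14.4 and 10.1 CPM at 72h. The colours overlapped at 24h, and at 72h Kaede-red was the lower without overlap. In Kaede-red cells 30 histone genes fell with time (3.76% of all genes) and 1 rose. Replication-dependent histones are transcribed in dividing cells, and the 18 markers of dividing cells summed to medians of 89.5 and 95.9 CPM in Kaede-green and Kaede-red libraries for 24h and of 102 and 70.4 CPM at 72h. The part of dividing cells in these values was not tested.

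Genes of translation and mitochondria had smaller negative medians. They were -0.58 for 77 mitochondrial ribosomal proteins (14 positive), -0.32 for 76 nuclear genes of the respiratory chain and ATP synthase (18 positive) and -0.30 for 80 cytoplasmic ribosomal proteins (17 positive), against -0.068 for all genes. In Kaede-red cells 32 of the cytoplasmic ribosomal proteins, 15 of the respiratory chain genes and 8 of the mitochondrial ribosomal proteins fell with time (3.76% of all genes did). Called in the interaction was only Mrpl41 among them, with -2.94 (adjusted p = 0.0482) on 0 to 10 counts per Kaede-green library at 24h. Eif4a2, an RNA helicase of translation initiation, had -1.62 (adjusted p = 0.0222). It was at 11.1 to 18.8 CPM in Kaede-green and 13.4 to 23.1 CPM in Kaede-red libraries at 24h, and at 14.3 to 24.1 and 7.12 to 8.62 CPM at 72h, and its span holds Snora81 and Snord2 on the same strand, whose reads could add to its count. Dars, the aspartyl-tRNA synthetase, had -1.62 (adjusted p = 0.0465), with 1.09 over time for Kaede-green and -0.53 for Kaede-red cells, neither of which passed (adjusted p = 0.359 and 0.15).

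**Figure D4:**
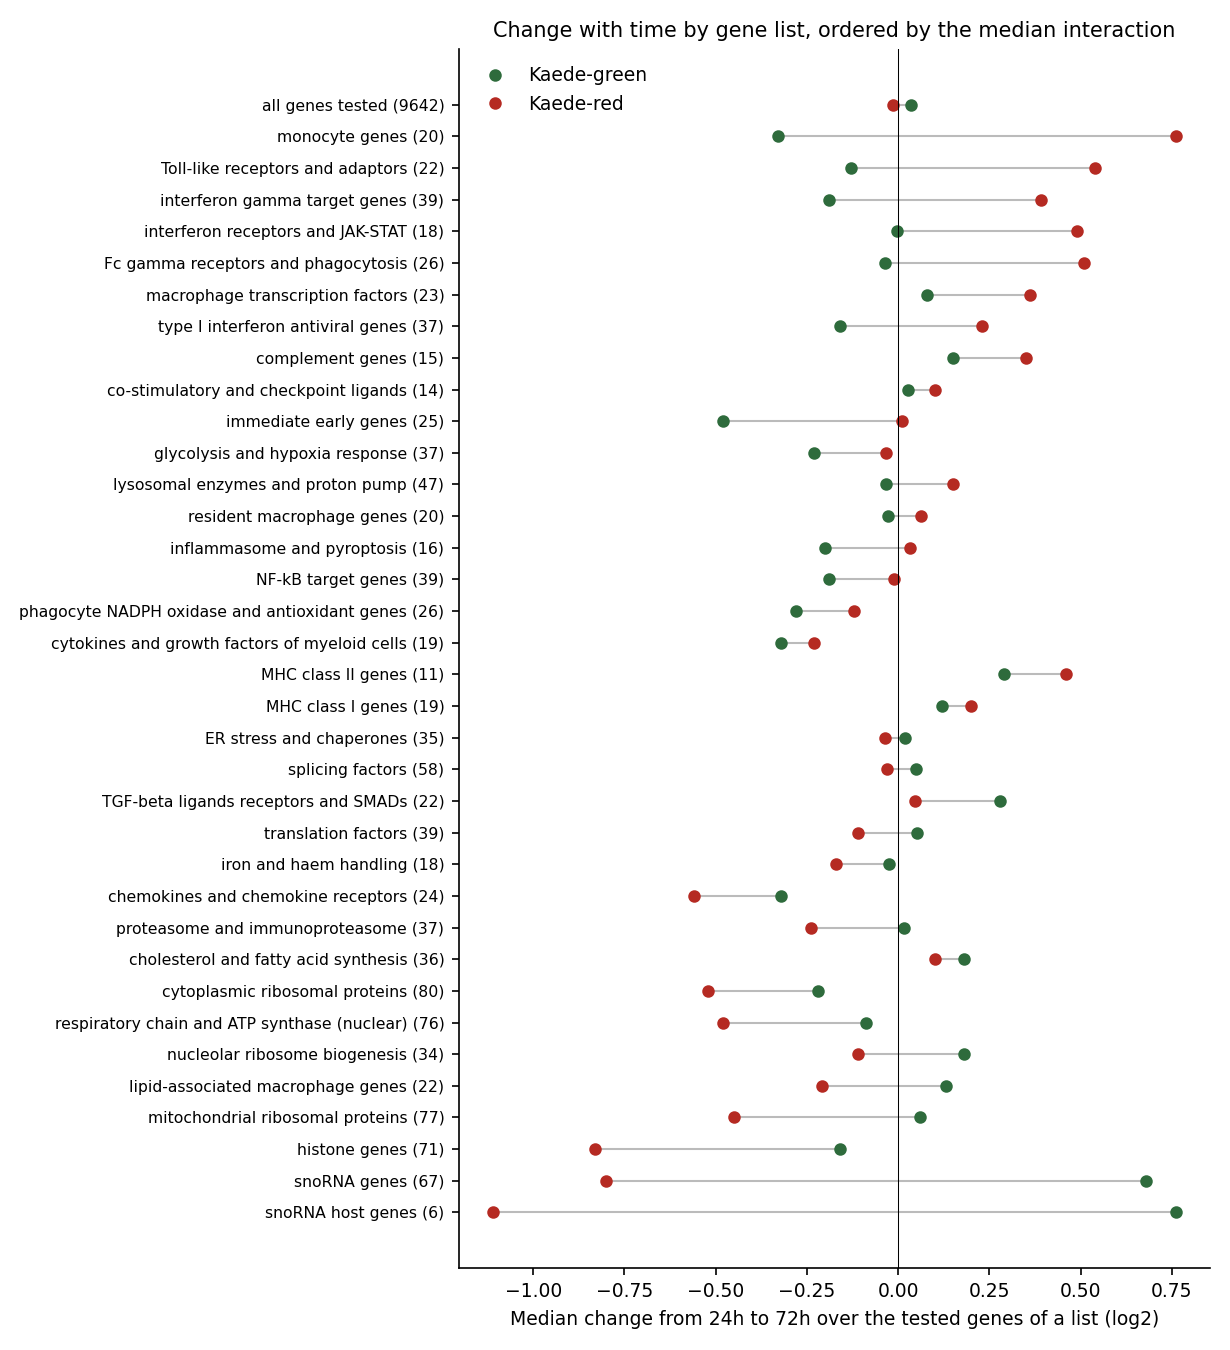
Median log2 change from 24h to 72h over the tested genes of each list in Kaede-green cells (green points) and Kaede-red cells (red points), with lists ordered by their median interaction and the number of tested genes in parentheses. Monocyte genes have the widest gap with Kaede-red to the right (0.76 against -0.33), and snoRNA genes and their hosts the widest with Kaede-red to the left.

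Of the remaining named genes, Fstl1, a secreted glycoprotein of stromal cells, and Rhox5, an X-linked homeobox gene, had interactions of -1.87 and -1.63 (both adjusted p = 0.0482). Fstl1 was at 7.37 to 14.7 CPM in Kaede-green and 4.30 to 14.9 CPM in Kaede-red libraries at 24h, and at 13.1 to 20.8 and 3.33 to 4.46 CPM at 72h. The fibroblast markers given above moved with it. All 8 that were tested had a negative interaction (median -0.94), and none was called (0 by DESeq2). At an unadjusted p under 0.05, 5 of them were negative, against 770 of all 9642 genes tested. Of the 8 markers, 7 were lower in Kaede-red cells at 72h (8.76% of all genes) and none at 24h (4.28%). Their part in the value of Fstl1 was not tested. Hprt, the purine salvage enzyme, had the largest value (-6.15, adjusted p = 0.0488), which rested on Kaede-green 72h replicate 3 with 13300 CPM against 16 to 142 CPM in the other libraries, and was 0.83 (adjusted p = 0.475) without it.

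Other genes that the study describes in these cells did not pass in the interaction with edgeR. Adgre1, the gene of F4/80, was higher in Kaede-red cells at both times by nearly the same amount, with an interaction of 0.14 (adjusted p = 0.875, -0.34 with scaling by library size alone). Il1b was lower in Kaede-red cells at both times, with 0.10 (adjusted p = 0.903, -0.24 with that scaling). The median of all genes was -0.34 with that scaling. Mrc1, Il6, Pparg and Il10 had 0.44, 1.21, -1.14 and 0.64 (adjusted p = 0.597, 0.399, 0.414 and 0.832), with standard errors of 0.35, 0.68, 0.65 and 1.05. Cx3cr1, Cebpb and Tgfb1 had 1.77, 0.96 and 1.36 and did not pass with edgeR (adjusted p = 0.148, 0.0748 and 0.0571). With DESeq2 Cebpb and Tgfb1 passed (adjusted p = 0.0191 and 0.0216), and without 1 library Tgfb1 passed in 5 of 16 edgeR fits and Cebpb and Cx3cr1 in 1 each. Of these, Tgfb1 rose by 1.07 in Kaede-red cells (adjusted p = 0.00483) and Cx3cr1 by 1.36 (adjusted p = 0.0172). The study describes Cebpb as lower and Pparg as higher at 72h than at 24h within Kaede-green cells, which the interaction does not test. For that comparison edgeR gave -0.58 for Cebpb (unadjusted p = 0.00624, adjusted p = 0.401) and 1.51 for Pparg (unadjusted p = 0.0102, adjusted p = 0.43).

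The number of called genes depended strongly on single libraries. It was 2 without Kaede-red 24h replicate 3, 5 without replicate 4 and 155 without replicate 1 of that group. Without Kaede-green 24h replicate 2, 3 or 4 it was 6, 13 or 126, and without Kaede-green 72h replicate 2 or 3 it was 18 or 20. Without Kaede-red 72h replicate 1, 2, 3 or 4 it was 6, 11, 40 or 24, and without one of the other 4 libraries it lay between 50 and 102. The sign of all 73 genes was kept in each of these 16 fits, except for Hprt without Kaede-green 72h replicate 3. Rgs1 and Ace were called in all 16 fits, Vcan and Ms4a7 in 15, Itga4, Ly6c1, Eif4a2 and Snora7a in 11. Itgal and Selplg were called in 8, Cybb and Fabp5 in 7, Cd63 and Zfp36 in 4 and Ifit1 in 2.

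**Figure D5:**
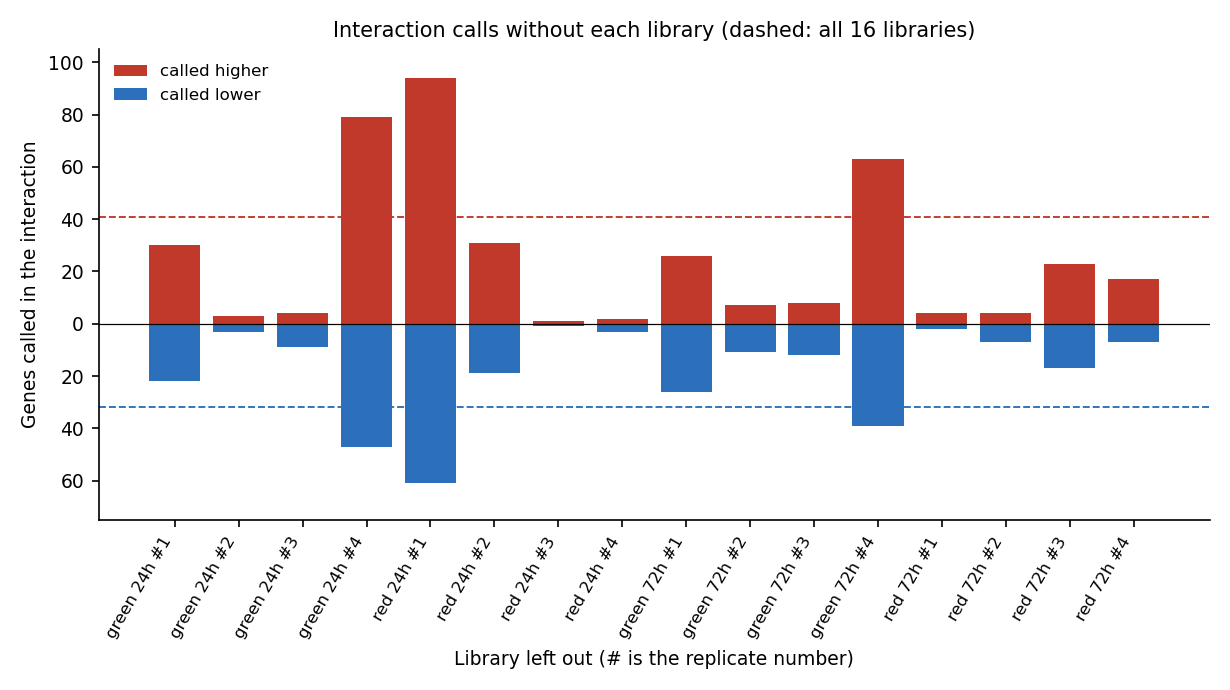
Genes called in the interaction (y axis, positive values upwards and negative downwards) in 16 fits that each left out 1 library (x axis), with the counts of all 16 libraries as dashed lines at 41 and 32. The total is lowest (2) when Kaede-red 24h replicate 3 is left out and highest (155) when replicate 1 of that group is.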

How the data were processed

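Total RNA of sorted cells from 16 libraries was sequenced with a stranded low-input kit. The authors trimmed reads (Trim Galore), aligned them to mm10 (HISAT2) and counted reads per gene (featureCounts), and deposited raw counts for 24421 genes. Tool versions and the strand setting of the counting are not given in the sources used here, so reads of overlapping and antisense genes may be mixed.

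From these counts, genes were filtered with filterByExpr (9642 kept), scaled by TMM and fitted in all 4 groups with edgeR's quasi-likelihood test (R 4.3.3, edgeR 4.0.16), with Benjamini-Hochberg adjustment over all genes tested and a threshold of 0.05. Values are log2 differences with standard errors, and CPM values are TMM-scaled. Total counts were 3216858 to 15423085 per library, of which Rn45s took 78.5% over all libraries. The test was run on simulated counts first, with log2 interactions of 1, 1.5, 2 or 3 given to 50 genes each. It recovered 8, 28, 46 and 70% of these, and 8.43% of its calls were false. Many interactions of the lower sizes would thus be missed. Replicates are libraries, and no source used here ties Kaede-green to Kaede-red libraries of a tumour, so that p-values measure the spread between libraries.

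Genes were named if they were among the 10 largest called positive or negative values at a mean log2 CPM of at least 3, among up to 4 called genes per list and direction, or described by the study. Genes with values from a list that did not pass were chosen after their values were seen. The comparison, the 35 gene lists and the 11 marker lists were chosen with earlier results of these data known. Alternatives were DESeq2 1.42.0, other scalings and filters, robust dispersion, thinning to equal depth, the Rn45s share as a covariate, a replicate block and leaving out each library. Leaving out small RNA, histone and predicted genes was added after seeing the data. The values of 1 called gene are not reported here.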

Additional observations from a re-analysis of the deposited data

Results flagged for a closer look

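The change in red-green difference is itself a difference between times, tested as the interaction, and it passed for 73 genes, 41 positive and 32 negative. Among the genes named, positive values were 2.95 for Ace, 2.92 for Cd177, 2.44 for Gm8979, 2.15 for Ifitm6, 1.98 for Vcan, 1.89 for Hp, 1.86 for S100a11, 1.82 for Adgre5, 1.75 for Itgal, 1.72 for Ly6c1, 1.66 for Itgb7, 1.60 for Add3, 1.51 for Selplg, 1.38 for Itga4 and Tnfrsf1b, 1.33 for Ifit1 and Ly6e, 1.21 for Cybb, 1.18 for Notch2, 1.17 for Gvin1 and Gm4070 and 1.16 for Zfp36 and Ifi203. Negative values were -6.15 for Hprt, -2.94 for Mrpl41, -2.25 for Rgs1, -2.03 for Rnu11, -1.93 for Snora7a, -1.88 for Snora26, -1.87 for Fstl1, -1.85 for Dancr, -1.68 for Ms4a7 and Bcl2a1a, -1.66 for Bcl2a1d, -1.63 for Rhox5, -1.62 for Dars and Eif4a2, -1.57 for Hist2h2bb, -1.41 for Hist1h1b, -1.32 for Fabp5, -1.28 for Cd63 and -1.26 for Hist1h2ai.

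A single library lay far from the other 3 of its group, by Dixon's criterion, in 12 of 212 groups of 4 examined, where chance gives about 11. Of Kaede-green 72h replicate 3 these were Hprt at 13300 CPM, Rgs1 at 35.3 CPM and Ifit1 at 29.7 CPM. Ms4a7 stood at 17.5 CPM in Kaede-green 72h replicate 1 and Adgre1 at 21.1 CPM in replicate 4. At 24h the Kaede-green values were Hprt at 142 CPM in replicate 1, Ly6e at 165 CPM in replicate 2, Rgs1 at 10.2 CPM in replicate 3 and Ace at 9.41 CPM in replicate 4. In Kaede-red cells they were Ly6c1 at 35.5 CPM in 24h replicate 1, Zfp36 at 132 CPM in 72h replicate 1 and Pparg at 1.97 CPM in 72h replicate 3.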

How the results depend on the processing

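The 73 interaction calls (41 positive, 32 negative) became 290 (159, 131) with DESeq2, 216 (106, 110) without the filter, 156 (79, 77) at 10 or more counts in every library, 149 (96, 53) with the Rn45s covariate, 47 with 19 negative when thinned, and 1 (0, 1) with scaling by library size alone, which moved the median of all genes from -0.068 to -0.34. Without the RNA class genes 52 were negative. Leaving out Rn45s gave 73 calls (41, 32), scaling by RLE factors 69 (35, 34) and robust dispersion 83 (47, 36). The library size in the scaling by library size alone includes the Rn45s counts. The 63 that also passed in Kaede-red cells were 227, 152, 141 and 0 with DESeq2, no filter, the count minimum and library size alone, and the 0 in Kaede-green cells were 6, 25, 1 and 1 with DESeq2, no filter, library size alone and thinning. The 5 monocyte genes were 9 with DESeq2 or no filter, 8 with the covariate and 0 with library size alone. Calls over time in Kaede-green cells (0) were 12, 36, 37 and 1 with DESeq2, library size alone, no filter and thinning, and those in Kaede-red cells (837) were 9, 504 and 225 with library size alone, thinning and the covariate. Red-green calls were 9054 and 187 at 24h and 8134 and 149 at 72h with library size alone and the covariate. The cause of these shifts was not tested. Adgre1 turned to -0.34 and Il1b to -0.24 with library size alone, Il1b to 0 at the count minimum, and with 1 library left out Adgre1 lay between 0.29 and -0.01 (Kaede-red 24h replicate 4 left out) and Hprt between -7.07 and 0.83 (Kaede-green 72h replicate 3 left out).

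With 1 library left out, the interaction gave 2 to 155 calls (1 to 94 positive, 1 to 61 negative), of which 2 to 133 passed in Kaede-red and 0 to 2 in Kaede-green cells, and 1 to 8 monocyte genes. Time calls were 280 to 1108 in Kaede-red and 0 to 2 in Kaede-green cells, and red-green calls 503 to 765 at 24h and 1146 to 1910 at 72h.

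Whether same-numbered libraries share a tumour is not stated. Correlations of same-numbered deviations were 0.0493 to 0.153 at 24h, where replicates 1 and 4 correlated best with their own number, and -0.0183 to 0.0287 at 72h, where none did, so that pairing was not shown. A replicate block gave 78 interaction calls (50, 28), 66 of them passing in Kaede-red and 0 in Kaede-green cells, 6 monocyte genes, 877 and 0 time calls, and 692 and 1573 red-green calls. A block within each time gave 165 (106, 59), 10 monocyte genes, and 700 and 1562 red-green calls.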
